A study of Mus musculus with 4 samples.

Results

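A set of 5 GABA-A receptor subunit genes, Gabra2, Gabra3, Gabra6, Gabrb2 and Gabrd, was described in area CA1 of the mouse hippocampus. The members were every probe set whose platform annotation gives exactly 1 gene symbol and whose symbol is on this list, which gave 6 of 12422 probe sets, 2 of them for Gabra6 and 1 for each other gene. In all, 8251 genes had a probe set with 1 symbol. The 4 samples were total RNA of CA1 from young male C57BL/6J mice, an inbred strain, whose only treatment was handling. They formed 1 group, the handled controls of an experiment in which other mice were shocked. 1 control sample was collected at each time, 1, 2, 4 and 6 hours from the final shock of those mice. Each was measured on 1 single-colour array. Whether a sample held RNA of 1 mouse or of several is not stated, and no shocked mouse was analysed here. Differences between these samples therefore mix time, animal, dissection and array, and with 1 sample at each time no pair of times could be tested.

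The GABA-A receptor is a chloride channel built from several subunits that opens when it binds GABA, the main inhibitory transmitter of the forebrain. Most receptors combine alpha and beta subunits, which form the GABA sites, with a gamma or a delta subunit, and the alpha subunit sets the response to benzodiazepines. In mouse hippocampus alpha2 is typical of synapses on pyramidal neurons, including those on the axon initial segment, while delta is typical of extrasynaptic receptors of dentate granule cells, and alpha6 is best known from cerebellar granule cells.

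The promoter windows of 3 of these genes are shown because they belong to the alpha gene with a bright signal in every sample, an alpha gene with a probe set near the bottom of the scale in every sample, and the beta gene of the set. Gabra6 and Gabrb2 are also direct neighbours among protein-coding genes. Each window runs from 250 bases before to 50 bases after the annotated start, is read 5' to 3' on the gene's strand, and comes from RefSeq on GRCm38.p6. Capitals mark each CG. RefSeq windows were matched for 4 of the 5 genes, 7 windows in all, and Gabrb2 had 3 of them, of which the first is shown. The Gabra2 window is chr5:71095800-71096099 on the minus strand, that of Gabra6 is chr11:42321023-42321322 on the minus strand, and that of Gabrb2 is chr11:42420190-42420489 on the plus strand.
Gabra2: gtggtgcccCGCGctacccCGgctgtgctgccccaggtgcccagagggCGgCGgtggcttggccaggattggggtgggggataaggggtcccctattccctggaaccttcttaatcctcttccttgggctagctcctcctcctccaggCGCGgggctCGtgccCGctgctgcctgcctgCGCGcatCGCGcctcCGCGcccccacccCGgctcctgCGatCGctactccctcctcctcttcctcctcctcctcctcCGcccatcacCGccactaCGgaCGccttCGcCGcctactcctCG
Gabra6: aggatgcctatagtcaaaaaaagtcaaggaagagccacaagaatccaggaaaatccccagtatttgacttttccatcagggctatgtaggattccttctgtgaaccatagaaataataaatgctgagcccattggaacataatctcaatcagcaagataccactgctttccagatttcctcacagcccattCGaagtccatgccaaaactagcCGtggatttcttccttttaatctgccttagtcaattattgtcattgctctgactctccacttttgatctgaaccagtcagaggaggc
Gabrb2: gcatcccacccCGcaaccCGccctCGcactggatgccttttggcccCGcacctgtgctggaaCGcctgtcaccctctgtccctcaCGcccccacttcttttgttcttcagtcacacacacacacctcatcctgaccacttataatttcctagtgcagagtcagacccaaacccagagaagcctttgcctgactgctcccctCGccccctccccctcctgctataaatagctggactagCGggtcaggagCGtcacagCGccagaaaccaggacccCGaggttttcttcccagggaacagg
The Gabra2 window held 25 CG, as many as or more than 83.1% of 32851 windows of the same length, which had a median of 7. The Gabra6 window held 2 CG and the Gabrb2 window held 11. The letters TATAAA, searched on both strands, stood in 13.6% of all windows. In the Gabrb2 window shown they began 30 bases before the start on the gene's strand. The other windows of Gabrb2 held no match. The windows of Gabra2 and Gabra6 held none either, and both overlapping windows of Gabra3 held the same single match on the opposite strand. These are descriptions of the letters, and nothing on binding or expression was measured from them.

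Values below are the deposited signal of a probe set, on a linear scale, in the order 1, 2, 4 and 6 hours. For log2 values the arrays were brought to the same distribution and signals under the 20th percentile (35.1) were set to that floor, so that such a sample has only an upper bound. Probe sets whose mean log2 value reached the 40th percentile (a signal of 105) entered the tests. That left 2 of the 6 member probe sets, those of Gabra2 and Gabrb2, among 7453. The brightness of a probe set also depends on its probes, so the signals of different subunits do not give their order in transcript number.

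**Figure D1:**
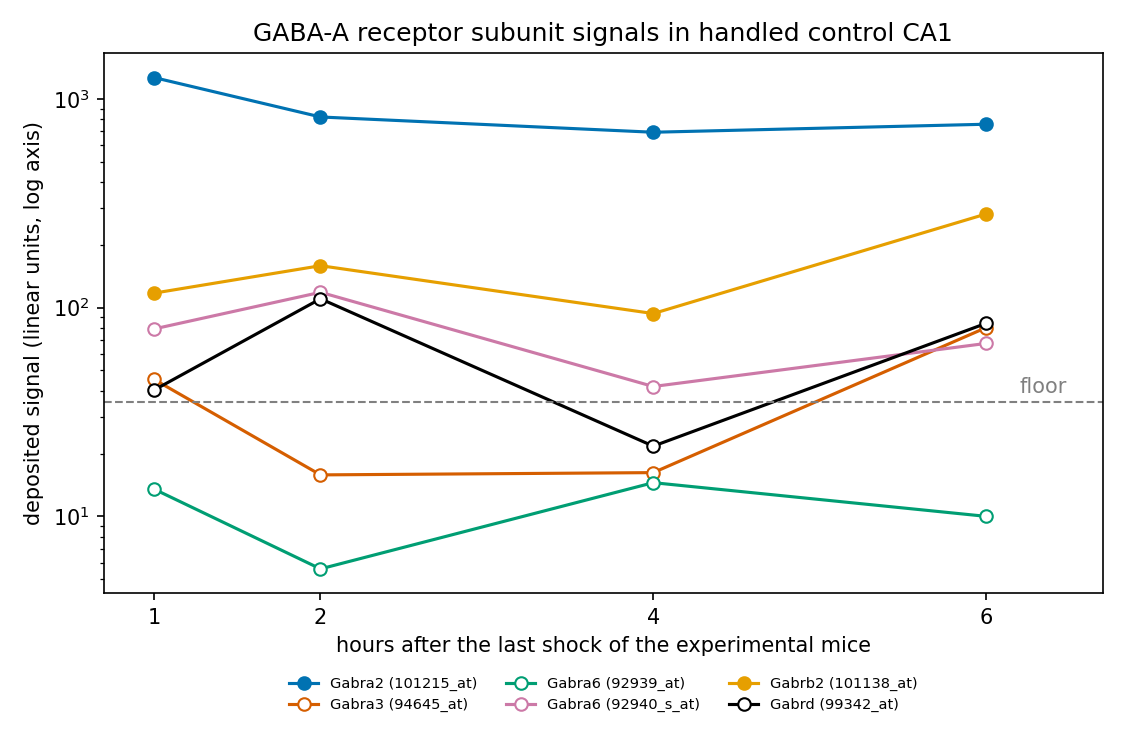
Deposited signal (log axis) of the 6 member probe sets by time in hours from the final shock given to the experimental mice, 1 point per sample, with filled points for the 2 tested probe sets and a dashed line at the floor of 35.1. Gabra2 sits between 693 and 1267, Gabrb2 between 93.7 and 281, and the first probe set of Gabra6 below the floor in all 4 samples.

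Gabra2 was the member with a bright signal throughout. It had signals of 1267, 820, 693 and 757 (mean 884 ± 260, SD, n = 4). The 1-hour sample was the highest, and the 2-, 4- and 6-hour samples lay close together. On each array the Gabra2 probe set stood at the 88.1, 81.3, 78.5 and 79.8 percentile of all probe sets without controls. The 1-hour value lay 1.71-fold above the mean of the other 3, a log2 difference of 0.77 where the SD of those 3 was 0.11. Of the tested probe sets, 4.28% lay as far or further above in that sample. The SD of Gabra2 was 0.40 on the log2 scale over 4 samples and 0.11 without the 1-hour sample, against a median of 0.25 over all tested probe sets.

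The 1-hour sample also differed in its control probe sets. For Gapdh, a glycolytic enzyme whose 3' and 5' probe sets serve as a check of RNA integrity, the ratio of the 3' to the 5' signal was 4.52 there, against 1.18, 1.37 and 1.20 in the 2-, 4- and 6-hour samples. For beta-actin, a cytoskeletal protein with such probe sets too, it was 2.34 against 2.00, 1.80 and 1.76. Markers of several cell types differed there too, in lists that are a part of those read. Of 8 listed genes of the choroid plexus, the tissue that makes cerebrospinal fluid, 6 were on the array, all above the floor in every sample, and at 1 hour they summed to a signal of 3464, against 1104, 1319 and 1062 at the 3 later times. Of the 4 tested ones 3 were highest at 1 hour, where 35.0% of all tested probe sets were. Of 12 listed genes of neurons in general 10 were on the array, with a summed signal of 38288, against 44626, 42106 and 46421, and 7 of these 10 were lowest at 1 hour, where 29.2% of all tested probe sets were. Map2, a microtubule protein of dendrites, was below the floor at 1 hour alone. Of 11 listed thalamus markers 8 were tested, of which 5 were lowest at 1 hour, with a summed signal of 3027 against 4347, 5444 and 4782. The part of these differences in the high Gabra2 signal was not tested. Pairs that included the 1-hour sample had 605 to 651 tested probe sets that were 2-fold or more apart, and pairs without it had 300 to 369.

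Among the alpha subunits the other signals were low. Gabra3, which encodes the alpha3 subunit of thalamic reticular and monoamine neurons, had 45.3, 15.8, 16.2 and 80.2. The 2- and 4-hour samples were below the floor, and the 6-hour sample was the highest, at least 2.30-fold above them. Gabra6 had a pair of probe sets. The first had 13.5, 5.6, 14.5 and 10, below the floor in every sample. The second had 79.1, 118.5, 41.9 and 67.4, above the floor in every sample and under the filter for tests. The 2 probe sets thus stood on opposite sides of the floor in every sample. The letter s in the name of the second is the array maker's mark for a probe set that can match more than 1 transcript.

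Because alpha6 belongs to the cerebellum, markers of cerebellar granule cells were read beside it. Of 11 listed genes 7 were on the array, and their summed signal was 2083, 2713, 2685 and 2559. Zic1 and Calb2 of this list are also on the thalamus list, and Calb2 is on the interneuron list. The sum therefore does not measure cerebellar granule cells alone. Eomes was below the floor in the 2-, 4- and 6-hour samples. Cbln1, a synaptic organizer that cerebellar granule cells secrete, had 83.9, 331.3, 400.5 and 334.5. The samples had the same order in the sum of the listed thalamus markers, with 3027, 4347, 5444 and 4782. The 4-hour sample, lowest for Gabra6 in the second probe set, was the highest for Cbln1 and for the thalamus sum. The 2-hour sample, highest for Gabra6 in that probe set, was the highest for the cerebellar granule sum, which was lowest at 1 hour. The part of cerebellar or thalamic cells in the Gabra6 signal was not tested. The sums are of probe sets of unequal brightness, and in tissue RNA fewer cells of a type and less RNA per cell cannot be told apart.

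Gabrb2 encodes the beta2 subunit, which is widespread in brain receptors and carries a site for the anaesthetic etomidate. It had 117.4, 158.9, 93.7 and 281.1 (mean 163 ± 83.4, SD, n = 4). The 6-hour sample stood apart at the top, and the 4-hour sample was the lowest. The 6-hour value lay 2.32-fold above the mean of the other 3, a log2 difference of 1.21 where the SD of those 3 was 0.34. Such a difference of 1 log2 unit or more was present in 1.53% of tested probe sets in the 6-hour sample, 114 of 7453. The SD of Gabrb2 was 0.67, higher than or equal to that of 92.6% of tested probe sets. That rank is over tested probe sets of every level. Gabrb2 itself stood at the 40.8, 46.5, 37.0 and 59.3 percentile of the arrays. A range of 2-fold or more was more frequent under the filter for tests (42.3%) than among tested probe sets (17.8%). Markers of several cell types also differed in the 6-hour sample, in lists that are a part of those read. Of 12 listed genes of oligodendrocytes and myelin 9 were on the array, and their summed signal was 24073, 21260, 24705 and 26745. Of the 8 tested ones 6 were highest at 6 hours, where 20.8% of all tested probe sets were, and Cnp, an enzyme of myelin, was below the floor in all 4 samples. Of 10 listed endothelial genes all 10 were on the array, with a summed signal of 3088, 3225, 2602 and 2123, and 4 of the 7 tested ones were lowest at 6 hours, where 24.0% of all tested probe sets were. In that list Pecam1 was below the floor at 4 hours and Kdr at 1 hour. Of the 10 tested genes of neurons in general 5 were highest at 6 hours, against 20.8% of all tested probe sets. Their summed signal was 38288, 44626, 42106 and 46421. The part of these differences in the Gabrb2 values was not tested.

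Gabrd encodes the delta subunit, which carries tonic inhibition and sensitivity to neurosteroids. It had 40.3, 110.3, 21.7 and 84.1. The 2- and 6-hour samples were high and the 4-hour sample was below the floor, so its range was at least 1.59 on the log2 scale. Prox1, a dentate transcription factor, had 46.5, 56.1, 25.1 and 59.8, and only its 4-hour value was below the floor. Of 9 listed dentate markers 5 were on the array, with a summed signal of 2056, 2170, 2081 and 2183, and neither of the 2 tested ones, Dsp and Calb1, was lowest at 4 hours. Calb1, a calcium-binding protein shared with other neurons, made up most of that sum. The part of dentate tissue in the Gabrd values was not tested. For the labelled field, all 5 CA1 markers on the array were above the floor in every sample, among them Wfs1, with 2292, 2274, 2797 and 1964.

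**Figure D2:**
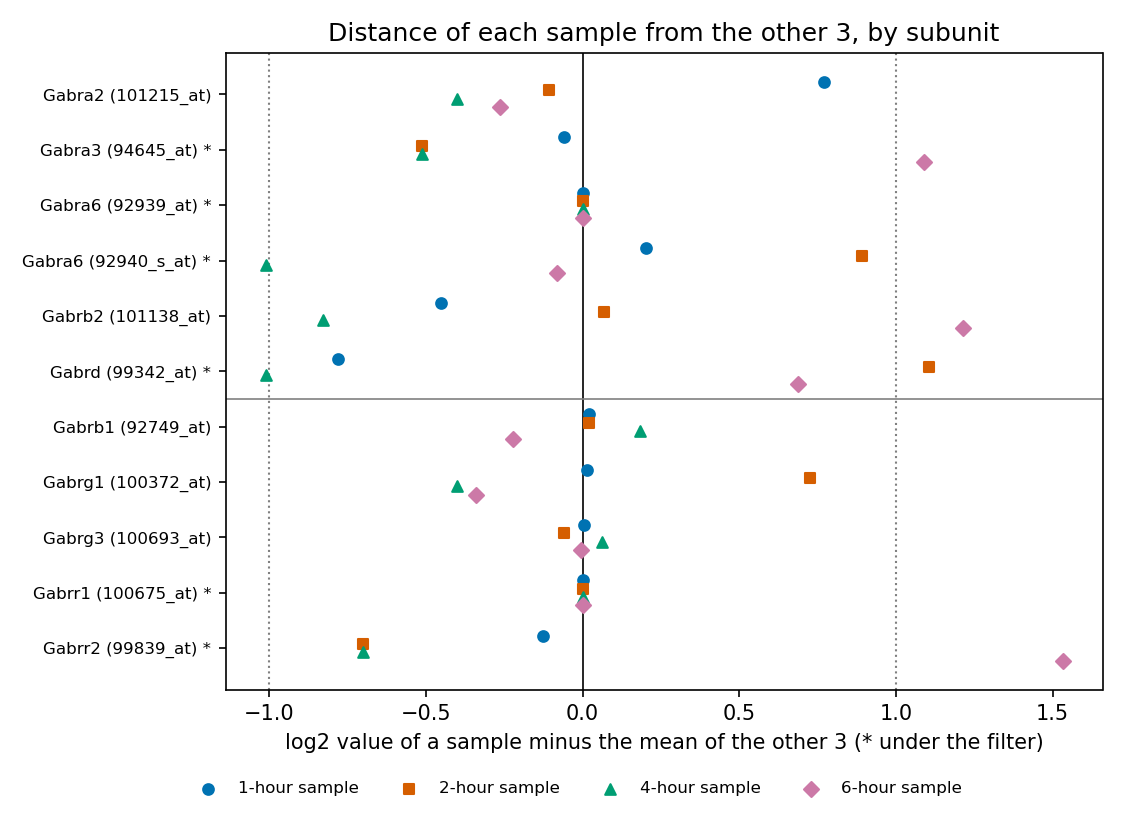
Log2 value of each sample minus the mean of the other 3 for the 6 member probe sets (top) and 5 other subunit probe sets (bottom), with 1 symbol per sample, dotted lines at 1 log2 unit and a star for probe sets under the filter. The 1-hour sample stands out for Gabra2 at 0.77 and the 6-hour sample for Gabrb2 at 1.21.

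The 4-hour sample gave the lowest signal of 4 of the 6 member probe sets, those of Gabra2, Gabrb2, Gabrd and the second Gabra6 probe set. Only Gabra2 and Gabrb2 among them were tested, and over all tested probe sets the 4-hour sample was the lowest in 24.0%. That share does not cover probe sets under the filter, for which none was computed. Gabra3 and the first Gabra6 probe set had their lowest signal in the 2-hour sample, below the floor.

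A range of 2-fold or more over the samples was counted next. It was present in 4 of the 6 member probe sets, against 27.6% of all 12422 probe sets without a filter on low values. Among probe sets under the filter it was present in 3 of the 4 members, against 42.3%, and among tested probe sets in 1 of the 2 members, Gabrb2, against 17.8%. Without the 1-hour sample the range of Gabrb2 was still 1.53 on the log2 scale and that of Gabra2 was 0.22, where 9.1% of tested probe sets had a range of 1 or more. With the floor at the 40th percentile 1 of the 6 had such a range, since 3 of the low ones then stood at or close to the floor.

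**Figure D3:**
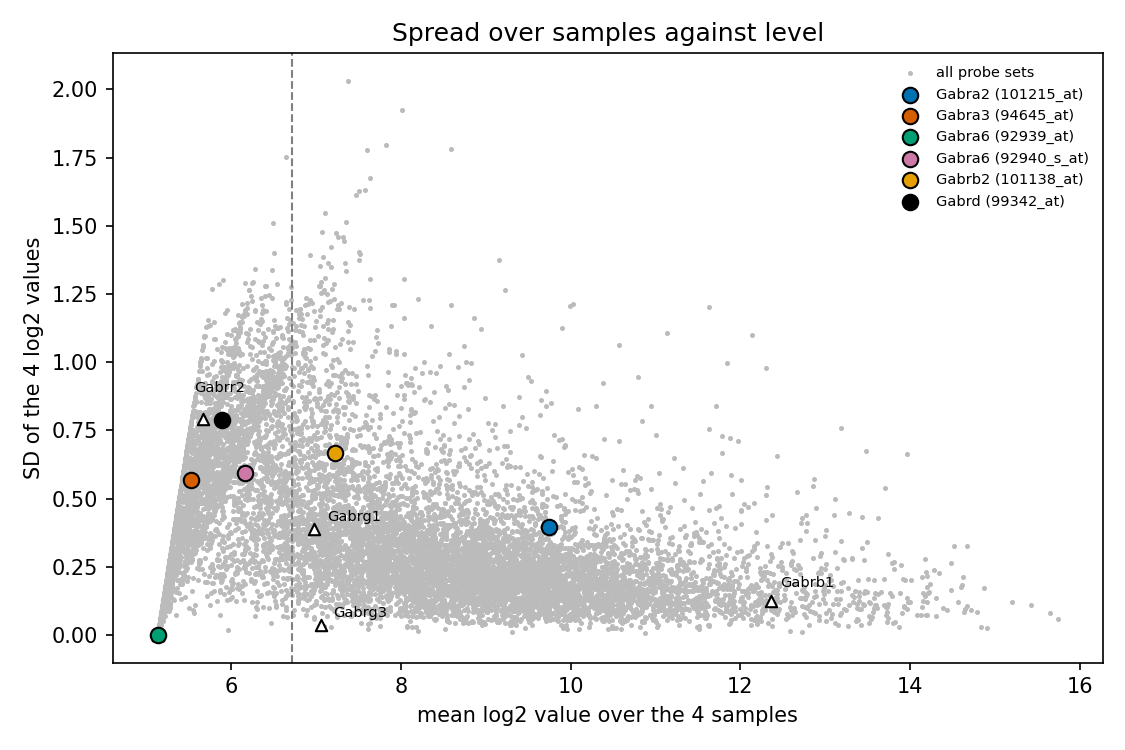
SD of the 4 log2 values against their mean for all 12422 probe sets without controls (grey), with member probe sets as coloured circles, other subunits as white triangles and a dashed line at the filter for tests. Gabrb2 lies at an SD of 0.67 and Gabra2 at 0.40, while Gabrb1 lies at 0.12. Their mean log2 values are unlike, at 7.22, 9.74 and 12.37. Gabrg3, at a mean of 7.05, lies at an SD of 0.04.

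A linear change with time was tested across all 7453 probe sets with limma, which left 2 residual degrees of freedom. No probe set passed an adjusted p of 0.05 (0 of 7453, 0%), and 467 had an unadjusted p under 0.05. For Gabra2 the fitted change from 1 to 6 hours was -0.67 ± 0.32 on the log2 scale (SE, n = 4, limma, adjusted p = 0.74). For Gabrb2 it was 0.93 ± 0.65 (SE, n = 4, limma, adjusted p = 0.78). Neither passed, and each value depended on 1 sample. Without the 1-hour sample the Gabra2 value was -0.15, and without the 6-hour sample the Gabrb2 value was -0.64.

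Other subunits of the family were described in the same way, and Gabrb1 had a narrow range. Of 14 listed genes 5 had a probe set with 1 symbol, 3 of which were tested, and none of these 3 had a range of 2-fold or more, against 17.8% of all tested probe sets. Gabrb1, the beta1 subunit, had 5520, 5168, 5769 and 4621, with an SD of 0.12 on the log2 scale. Gabrg3, the gamma3 subunit, had 134.0, 133.7, 133.5 and 130.2, with an SD of 0.04. Gabrg1, the gamma1 subunit, had 127.5, 188.9, 99.7 and 103.8. The 2-hour sample was the highest there, and its SD of 0.39 was close to that of Gabra2. The rho subunits, best known from the retina, were low. Gabrr1 was below the floor in all 4 samples, at 9.4, 16.9, 10.7 and 7.1, and Gabrr2 had 48.2, 31.2, 34.0 and 110.8, the highest value again in the 6-hour sample. The remaining 9 genes were not analysed here.

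Among genes that anchor and move the receptor, Gabarap and Nsf had the widest ranges. Of 22 listed 16 were on the array and 15 were tested, of which 2 had a range of 2-fold or more, against 17.8% of all tested probe sets, with a median SD of 0.28. Gabarap, which takes part in receptor traffic, had 939, 2483, 1464 and 3182. Its 1- and 4-hour samples were low and its 6-hour sample was the highest, as for Gabrb2. Nsf, the fusion ATPase that acts on receptor traffic, had 5050, 9289, 7836 and 8854, with the 1-hour sample lowest. Ap2m1, a clathrin adaptor subunit that takes the receptor in, had 3757, 6066, 4253 and 6588. Trak2, a motor adaptor, had 277.8, 227.7, 160.9 and 249.1, lowest at 4 hours. In 8 of the 15 the 1-hour sample was the lowest, against 29.2% of all tested probe sets. The 1-hour sample was also the lowest for 7 of the 10 general neuron markers, and it had the Gapdh ratio of 4.52 and the high choroid plexus sum. Their part in these values was not tested. Gphn, the scaffold gephyrin of inhibitory synapses, had 765.7, 759.5, 633.8 and 683.4, a range of 0.29 on the log2 scale, and was named after its values were seen.

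Among genes that make, load and clear GABA, Gad1 had the narrowest range of the 3 tested. Of 9 listed genes 5 were on the array, and none of the 3 tested had a range of 2-fold or more, against 17.8% of all tested probe sets. Gad1, the main enzyme of GABA synthesis, had 3952, 4258, 4085 and 4280, with an SD of 0.09. Slc32a1, which loads GABA into vesicles, had 3596, 2599, 3469 and 3671, lowest in the 2-hour sample. Slc6a13, a GABA transporter, had 442.7, 503.2, 472.7 and 352.2.

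Chloride and bicarbonate genes decide whether the open receptor inhibits or excites. Of 12 listed 8 were tested, and 1 had a range of 2-fold or more, against 17.8% of all tested probe sets. Clcn2, a chloride channel that lets chloride leave pyramidal neurons, had 51.2, 116.2, 141.8 and 173.0, lowest in the 1-hour sample. Slc12a5, the potassium and chloride exporter KCC2 of mature neurons, had 188.5, 234.1, 255.8 and 307.8. Its order followed the hours, with an adjusted p of 0.75 for a trend (limma). Stk39, a kinase of such transporters, had 203.6, 266.3, 169.2 and 261.8, and Slc4a3, a chloride and bicarbonate exchanger, had 2281, 2089, 2819 and 2521.

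Related receptors and modulators were read in the same way. Gabbr1, a subunit of the metabotropic GABA-B receptor and the 1 gene of 6 listed that was measured, had 3893, 4856, 3799 and 5810, with the 6-hour sample highest. Of 5 listed glycine receptor genes 2 were tested. Glra1, an alpha subunit of the glycine receptor, had 358.6, 314.3, 161.2 and 355.8, low in the 4-hour sample alone, and Glrb, its beta subunit, had 2790, 3120, 3315 and 3807. Of 7 listed modulators 2 were tested. Dbi, the diazepam-binding inhibitor, had 5441, 3947, 4344 and 4064, highest in the 1-hour sample as Gabra2 was, and Tspo, a mitochondrial protein that binds benzodiazepines, had 1200, 1362, 1467 and 1449. No gene of these lists passed the test for a trend, where 0% of all probe sets did.

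**Figure D4:**
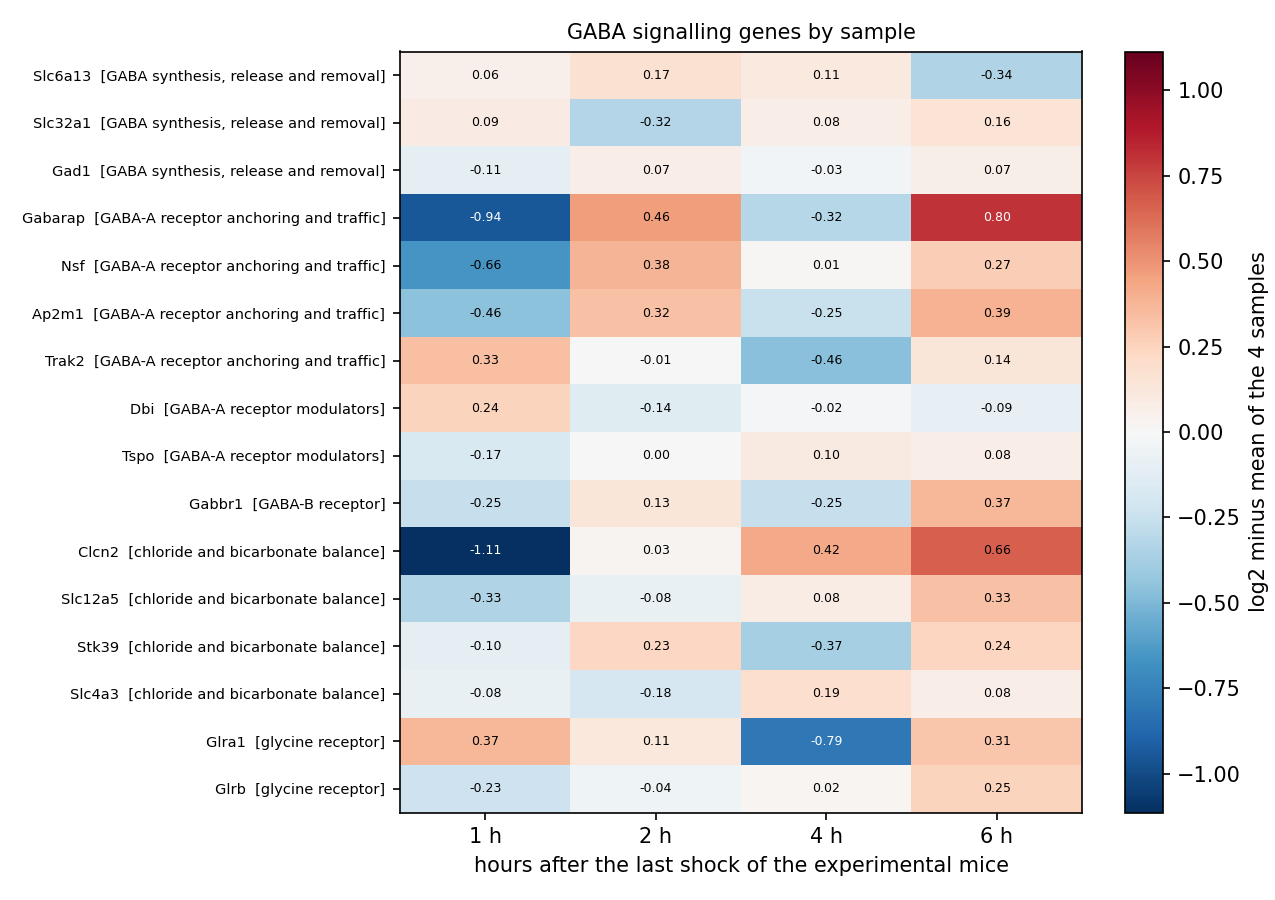
Log2 value of each of 16 named genes of GABA signalling in each sample minus its mean over the 4 samples, with the list of each gene in brackets. Clcn2 and Gabarap have their lowest value in the 1-hour sample, and Gad1 differs least.

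The genes whose pattern over the 4 samples lay nearest to each tested member were found by the distance between log2 values after each gene's mean was removed, among 6741 tested probe sets of other genes. For Gabra2 they were Lamb1, a laminin chain, at 0.03, Arf2, a small GTPase, at 0.08, and Strbp, an RNA-binding protein, at 0.09. All shared a high 1-hour sample, with signals of 559.4, 363.2, 306.2 and 342.3 for Lamb1. Within 0.25 of Gabra2 lay 128 of the 6741 probe sets, 1.90%. For Gabrb2 they were Rars, the arginyl-tRNA synthetase, at 0.17, with 464.0, 603.2, 433.3 and 1229.1, Dusp11, a phosphatase that acts on RNA, at 0.26, and Prkag1, a subunit of the AMP-activated kinase, at 0.30. Within 0.25 of Gabrb2 lay 1 of the 6741 probe sets, that of Rars, 0.015%. The distance was not scaled to the spread of a gene, with an SD of 0.67 for Gabrb2 and 0.40 for Gabra2. The counts of the 2 genes therefore cannot be compared. With 4 samples such likeness is a description of these arrays.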

How the data were processed

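Total RNA of 4 handled control CA1 samples was measured on single-colour arrays. The deposited table gives 1 intensity for each probe set on a linear scale. With 2% trimmed from both ends, every column of the deposited values averaged 500.3, so the arrays had been scaled to a common level. The software behind it is not given in the sources used. Of 12488 probe sets, 66 controls were kept out of the tests. Of the others, 10833 had a single symbol, 396 had more than 1 and 1193 were unnamed, and 10817 were matched by gene identifier to current symbols in the RefSeq table of GRCm38.p6.

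Values were quantile normalized, set to a floor at the 20th percentile, put on the log2 scale and filtered at the 40th percentile of the mean. The trend used limma 3.58.1 in R 4.3.3 (lmFit, eBayes with an intensity trend), with hours as a linear term, two-sided p-values and Benjamini-Hochberg adjustment over all 7453 tested probe sets. The samples were collected at different times, and how many mice gave RNA to each is not stated. The p-values measure only the spread among these arrays, which mixes animal, dissection and array and may in part be technical. The number of arrays limits the precision. The fit was tested on simulated data. Genes of a list entered by their brightest probe set, the named ones being the 4 tested members of widest range, and Prox1, Eomes, Cbln1, Calb1, Dsp, Wfs1, Map2, Cnp, Pecam1 and Kdr were added for context, after their values were seen. For each tested member the 3 nearest patterns were named. The members and lists were chosen with earlier results of these data known. Other scalings, floors and filters, eBayes without the intensity trend and leaving out each sample were tried. Matplotlib 3.10.9 under Python 3.11.15 drew the figures.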

Additional observations from a re-analysis of the deposited data

Results flagged for a closer look

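Of 33 named probe sets, 1 had a sample far from the other 3. For Slc32a1, the vesicular GABA transporter, the lowest sample was the 2-hour one, with 2599 against 3596, 3469 and 3671, and its gap to the nearest value was 0.834 of the whole range on the normalized log2 scale, above Dixon's limit for 4 samples. On the deposited signals the gap was 0.812 of the range, under that limit. Chance gives such a gap in about 1 of 20 groups. No probe set of Gabra2, Gabra3, Gabra6, Gabrb2 or Gabrd was marked in this way.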

How the results depend on the processing

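The number of probe sets with a time trend was 0 under each other scaling, floor, filter and form of moderation tried, and 0 to 3 when 1 sample was left out, with 3 without the 2-hour sample. Neither Gabra2 nor Gabrb2 passed under any of these, with adjusted p from limma of 0.36 to 1.00 for Gabra2 and 0.59 to 1.00 for Gabrb2. The fitted change was -1.34 to -0.15 for Gabra2 and -0.64 to 1.19 for Gabrb2 over the fits without 1 sample, each still expressed as the change from 1 to 6 hours. The count of 6 member probe sets with a 2-fold range was 1 with a higher floor (the 40th percentile) and 2 to 4 without 1 sample, the lowest without the 6-hour sample. Over the 7453 tested probe sets that count was 1330, 1012 with the higher floor, 3432 of 12422 with no filter, and 666 to 1035 without 1 sample, where fewer samples alone narrow a range and the lowest was without the 1-hour sample. The number with a 6-hour value 1 log2 unit or more above the others was 114, 60 with the higher floor, 429 of 12422 with no filter, and 87 to 194 without 1 sample, the highest without the 2-hour sample. The SD of Gabra2 was 0.39 to 0.40 over the other scalings and floors and 0.11 to 0.48 without 1 sample, and that of Gabrb2 was 0.60 to 0.69 and 0.34 to 0.82. With the higher floor, the SDs of Gabra3 and Gabrd were 0, since all their values were then at the floor. No paired analysis was possible because the samples form 1 group.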
